A study of Mus musculus with 24 samples.

Results

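The genes described here encode the proteins of the mitochondrial ribosome. They were taken as all genes whose probe sets carry a single platform symbol made of Mrpl or Mrps and digits, with Mrps15 left out by the rule. This gave 75 of the 18193 genes named by a single symbol, read by 153 of the 45037 probe sets tested. A probe set is a set of short probes that reads 1 transcript or a stretch of it. Each gene is represented by its probe set with the highest mean signal over all arrays, a choice that uses the level and not any difference between groups. By textbook assignment, 48 of the genes encode large subunit proteins, 29 of them with a counterpart in the bacterial ribosome, and 25 encode small subunit proteins, 16 of them with such a counterpart. The large subunit count includes Mrps18a and Mrps30, whose names point to the small subunit. Mrpl58 encodes a peptide release factor that sits in the large subunit, and Mrps36, now counted as a part of the 2-oxoglutarate dehydrogenase complex, was left without a class.

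Arrays were made from the amygdala and the hippocampus of male mice. A breeding line with low freezing (line 24) was set against a breeding line with high freezing (line 25), freezing being the fear response scored in contextual fear conditioning. There were 4 groups of 6 arrays, in each tissue arrays 1 to 6 for the low line and 7 to 12 for the high line. The labels give no strain background, age, training or pooling, and do not tie equally numbered arrays of both tissues to 1 animal. Each selection direction is a single breeding line, and p-values measure the spread between these arrays.

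Mitochondria translate the few proteins encoded in their own DNA, all of them subunits of the respiratory chain and of ATP synthase, on a ribosome of their own. Its RNAs come from mitochondrial DNA, while its proteins are encoded in the nucleus, made by cytosolic ribosomes and imported. Some descend from proteins of the bacterial ribosome and others were added during mitochondrial evolution. In neurons, which depend on oxidative phosphorylation, mitochondrial translation supplies the respiratory chain.

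Promoters of nuclear genes for mitochondrial proteins often carry binding motifs of the transcription factor NRF1, of ETS family factors such as GABP, and of YY1. RefSeq (GRCm38.p6) gave a window of 250 bases upstream of the start for 66 of the 75 genes, 72 windows in all. The NRF1 core GCGCATGC, searched on both strands, was in 8 of these windows (11.1%) against 2.26% of all 32851 windows. The ETS core CCGGAAG was in 17 windows (23.6%) against 6.91%, and the YY1 core AAGATGGC in 4 (5.56%) against 1.56%. A match is a description of the letters and not a binding site. The windows of the 3 genes with the largest calls toward amygdala and of Mrps9, called toward hippocampus, are shown 5′ to 3′ on the gene's strand as those of genes described below, chosen by their calls and not by their letters; capitals mark the NRF1 core. They lie at chr6:92184024-92184273, minus strand, for Mrps25, at chr16:92058086-92058335, plus strand, for Mrps6, at chr3:94443086-94443335, plus strand, for Mrpl9, and at chr1:42850983-42851232, plus strand, for Mrps9.
Mrps25: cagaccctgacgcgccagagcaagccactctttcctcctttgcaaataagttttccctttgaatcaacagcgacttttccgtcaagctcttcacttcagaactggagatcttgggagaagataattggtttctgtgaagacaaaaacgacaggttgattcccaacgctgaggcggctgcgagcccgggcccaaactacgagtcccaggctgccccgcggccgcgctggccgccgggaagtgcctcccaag
Mrps6: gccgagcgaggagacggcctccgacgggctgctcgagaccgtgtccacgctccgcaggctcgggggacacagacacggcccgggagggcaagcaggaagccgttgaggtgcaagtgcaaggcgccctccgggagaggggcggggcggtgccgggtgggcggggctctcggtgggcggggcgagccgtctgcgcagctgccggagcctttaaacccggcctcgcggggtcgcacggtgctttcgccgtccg
Mrpl9: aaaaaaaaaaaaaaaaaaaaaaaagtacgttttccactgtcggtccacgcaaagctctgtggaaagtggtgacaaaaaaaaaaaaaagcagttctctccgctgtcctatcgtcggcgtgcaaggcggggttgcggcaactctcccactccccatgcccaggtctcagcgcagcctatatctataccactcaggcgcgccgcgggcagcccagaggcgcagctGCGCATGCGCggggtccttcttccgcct
Mrps9: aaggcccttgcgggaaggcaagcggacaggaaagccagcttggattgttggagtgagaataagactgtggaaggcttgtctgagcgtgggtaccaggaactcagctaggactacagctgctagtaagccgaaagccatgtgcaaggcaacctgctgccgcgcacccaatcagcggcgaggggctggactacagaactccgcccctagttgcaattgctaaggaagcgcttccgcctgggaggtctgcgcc
In the Mrpl9 window the core matches on both strands within the same overlapping letters, which gives 2 matches, while none of the 3 cores was found in the other windows shown. Of 18 genes with a window that were called higher in amygdala, 3 held the NRF1 core and 3 the ETS core. Of 7 called lower, 0 held the NRF1 core and 2 the ETS core, and of 41 not called, 5 and 12 did.

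Values below are log2(signal + 16), so a difference of 1 doubles signal + 16. For a bright gene this is close to a doubling of the signal, and for a weak gene it is more. Folds below are those of signal + 16. By their median level of 8.53, the mitochondrial ribosomal protein genes stood above the median of 6.64 over all genes. Their mean levels ran from 6.63 to 10.31. All but 2 had a mean of at least 7, and the 8075 genes of at least that level serve as the comparison of like brightness. The SD within groups had a median of 0.13 over the 75 genes, from 0.06 for Mrps18c to 0.30 for Mrpl41, and of 0.14 over the genes of like brightness. Array medians, without control probe sets, were between 43.3 and 55.6 in linear signal. The tissue labels went with their markers: 9 of 10 hippocampus markers were called lower in amygdala and 1 higher, and 7 of 8 markers of amygdala and the neighbouring striatum were called higher.

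Between amygdala and hippocampus, mitochondrial ribosomal protein genes moved in both directions and by small amounts. Over all 24 arrays, 30 of the 75 genes (40%) were called by limma (adjusted p under 0.05 after Benjamini-Hochberg), 21 higher in amygdala (28.0%) and 9 lower (12.0%). Calls were made for 25.8% of all probe sets (12.9% each way) and for 46.9% of genes of like brightness, 26.8% higher and 20.1% lower. Of the 73 genes with a mean of at least 7, 29 were called (39.7%). The difference was above 0 for 53 genes, with a median of 0.08, against a median of -0.02 over all probe sets and 0.03 over genes of like brightness, of which 56.4% were above 0. With quantile normalization 52 were above 0 and with median centring 53; the calls were then 19 higher and 9 lower, and 20 higher and 5 lower. The median size of the difference was 0.114, against 0.155 for genes of like brightness; 59 genes differed by less than 0.2, 7 by more than 0.3, and the largest difference was 0.46.

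**Figure D1:**
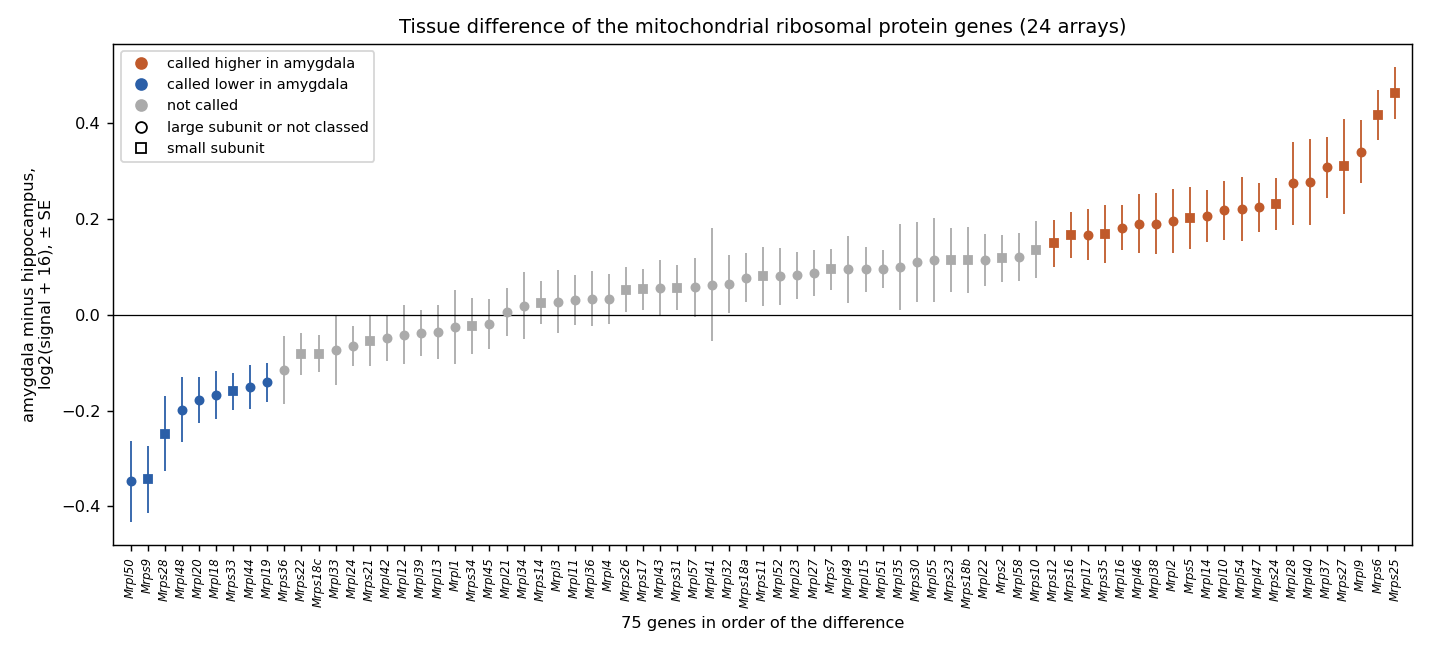
Amygdala minus hippocampus difference of the 75 genes in log2(signal + 16), in order of size, with bars of 1 SE from the fit of 24 arrays; colours give the call and shapes the subunit. The 21 called higher reach 0.46 (Mrps25), the 9 called lower reach -0.35 (Mrpl50), and squares and circles are found at both ends.

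Among small subunit genes, Mrps25, a protein without a bacterial counterpart, had the largest difference. On the low line arrays it ran from 8.47 to 8.74 in amygdala (median 8.60) and from 7.92 to 8.36 in hippocampus (median 8.30). On the high line arrays it ran from 8.58 to 8.74 (median 8.71) and from 7.97 to 8.27 (median 8.16). Every amygdala array lay above every hippocampus array. The mean was 8.65 ± 0.09 in amygdala and 8.18 ± 0.14 in hippocampus (SD, n = 12 each), a difference of 0.46 ± 0.05 (SE) or 1.38-fold, with an adjusted p of 3.76e-07. Mrps6, the counterpart of bacterial S6, was next. In the low line it ran from 9.08 to 9.37 in amygdala (median 9.14) and from 8.63 to 8.89 in hippocampus (median 8.84). In the high line it ran from 9.09 to 9.48 (median 9.19) and from 8.62 to 8.91 (median 8.75). Again no amygdala array overlapped a hippocampus array, and the difference was 0.42 ± 0.05 (1.34-fold, adjusted p = 1.36e-06). Mrps25 and Mrps6 were the 2 genes of the 75 whose tissues did not overlap on any array, a pattern shown by 4.91% of all probe sets and 13.9% of genes of like brightness.

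The other named small subunit genes higher in amygdala were Mrps27 and Mrps24. Mrps27, a protein with RNA-binding pentatricopeptide repeats, differed by 0.31 ± 0.10 (adjusted p = 0.0222) and was 1 of the 2 genes with a mean level under 7, with 6.78 ± 0.20 against 6.47 ± 0.29. Mrps24, the counterpart of bacterial S3, differed by 0.23 ± 0.05 (adjusted p = 0.00245). Small subunit genes lower in amygdala were Mrps9, Mrps28 and Mrps33. Mrps9, the counterpart of bacterial S9, ran from 7.65 to 8.23 in amygdala (median 7.89) and from 8.01 to 8.50 in hippocampus (median 8.26). The highest amygdala arrays thus reached into the hippocampus range, and the difference was -0.34 ± 0.07 (1.27-fold lower, adjusted p = 6.36e-04). Mrps28 differed by -0.25 ± 0.08 (adjusted p = 0.0206). Mrps33, a protein without a bacterial counterpart, differed by -0.16 ± 0.04 (adjusted p = 0.00348) with little spread, 9.63 ± 0.07 against 9.79 ± 0.06. In all, 8 of the 25 small subunit genes were called higher and 3 lower, with a median difference of 0.10.

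Among large subunit genes, Mrpl9, the counterpart of bacterial L9 at the base of the L1 stalk, led toward amygdala. It ran from 8.20 to 8.65 in amygdala (median 8.53) and from 7.81 to 8.39 in hippocampus (median 8.18). Some arrays of the tissues overlapped, and the difference was 0.34 ± 0.07 (1.27-fold, adjusted p = 3.18e-04). Mrpl37, without a bacterial counterpart, differed by 0.31 ± 0.06 (adjusted p = 6.40e-04), with amygdala arrays from 7.46 to 7.91 and hippocampus arrays from 7.07 to 7.67. Mrpl40 (0.28 ± 0.09), Mrpl28 (0.27 ± 0.09), Mrpl47 (0.22 ± 0.05) and Mrpl54 (0.22 ± 0.07) were also called higher, with adjusted p of 0.0230, 0.0200, 0.00157 and 0.0163. Mrpl28 and Mrpl47 correspond to bacterial L28 and L29, and Mrpl40 and Mrpl54 have no bacterial counterpart.

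Toward hippocampus the largest large subunit difference was that of Mrpl50, which has no bacterial counterpart. It ran from 7.32 to 8.02 in amygdala (median 7.84) and from 7.84 to 8.37 in hippocampus (median 8.08), with overlapping arrays and a difference of -0.35 ± 0.08 (1.27-fold lower, adjusted p = 0.00310). Mrpl48 (-0.20 ± 0.07), Mrpl20 (-0.18 ± 0.05), Mrpl18 (-0.17 ± 0.05), Mrpl44 (-0.15 ± 0.05) and Mrpl19 (-0.14 ± 0.04) were called lower, with adjusted p between 0.00717 and 0.0341. Mrpl18, Mrpl19 and Mrpl20 correspond to bacterial L18, L19 and L20, while Mrpl44 and Mrpl48 have no bacterial counterpart. The call of Mrpl48 was lost in 10 of 24 fits that left out a single array. In all, 13 of 48 large subunit genes were called higher and 6 lower, with a median of 0.07. Genes with a bacterial counterpart were called higher in 13 and lower in 5 of 45 cases, and those without in 8 and 4 of 28. Beside the counts by subunit and by counterpart stand 26.8% higher and 20.1% lower for genes of like brightness. Whether the classes differ was not tested.

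**Figure D2:**
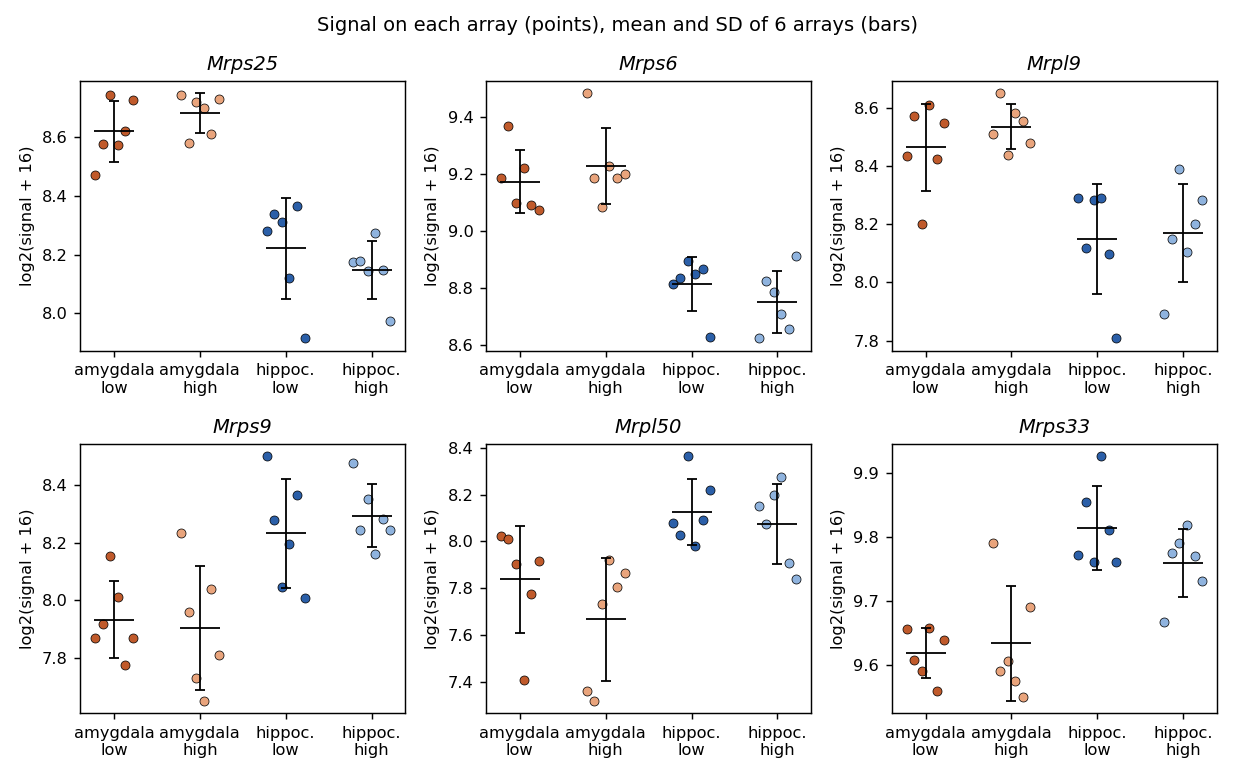
Level of 6 genes on every array as log2(signal + 16), by tissue and line, with the mean and SD of each group of 6 arrays. Mrps25 and Mrps6 have all 12 amygdala arrays above all 12 hippocampus arrays, while Mrpl9 and the 3 genes lower in amygdala (Mrps9, Mrpl50 and Mrps33) have overlapping arrays.

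The 18S ribosomal RNA control read at its 5′ end also separated the tissues, from 295 to 1525 in linear signal on amygdala arrays and from 3600 to 7093 on hippocampus arrays, and its part in these differences was not tested. Neuron markers were called lower in amygdala for 5 of 6 genes, with a summed signal of 20120 to 22508 against 23853 to 27405. Astrocyte markers were called lower for 5 of 7 and higher for 1 (15966 to 18225 against 18315 to 20531), oligodendrocyte markers lower for 5 of 6 (10458 to 13002 against 12761 to 18134) and meninges markers lower for 6 of 6 (418 to 856 against 1147 to 1949). Microglia markers were called higher for 2 of 7, endothelial and choroid plexus markers lower for 1 of 6 each, and red blood cell markers for 0 of 2, all with overlapping summed signals. In bulk tissue, fewer cells of a type and less RNA per cell cannot be told apart, and the part of cell composition was not tested.

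Where a gene had several probe sets, they did not always go together. The 15 called genes with more than 1 probe set had 31 others, of which 23 differed in the same direction as the representative and 8 in the opposite one; 5 were called in the same direction and 0 in the opposite. Of the 12 others with a mean of at least 7, 10 had the same direction. Mrpl9 was called on all 3 of its probe sets (0.34, 0.30 and 0.35) and Mrps6 on both of its own (0.42 and 0.34). Mrps25 was called on 2 of 3, with 0.46 and 0.41 against 0.05 on the third. Mrps9 was called on 2 of 4 (-0.34 and -0.31), the others giving -0.09 and 0.04. For Mrpl50 (-0.35 against -0.07) and Mrps24 (0.23 against -0.01) the second probe set showed little difference. Mrpl52 was not called on its brightest probe set (0.08) but was on 2 others (0.30 and 0.21), 1 of 7 uncalled genes with another probe set called. In GRCm38.p6 the annotated span of Mrps6 overlaps Slc5a3, a myo-inositol transporter gene, and that of Mrps25 overlaps Nr2c2, a nuclear receptor gene; whether these probe sets read sequence of both genes was not tested.

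**Figure D3:**
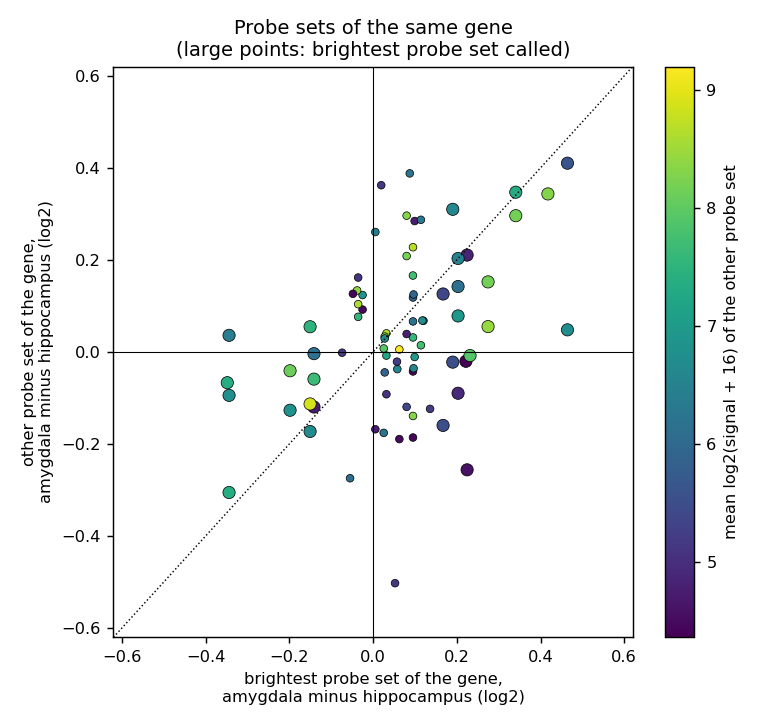
Amygdala minus hippocampus difference of each further probe set (vertical axis) against that of the gene's brightest probe set (horizontal axis), coloured by the mean level of the further probe set; large points belong to genes called on the brightest probe set. Of the 31 large points, 23 lie in the quadrants of equal sign, and the dotted line marks equal differences.

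Taken in each line alone, which share no arrays, the tissue difference called 4 of the 75 genes in the low line and 10 in the high line, against 12.0% and 15.4% of all probe sets and 24.6% and 28.0% of genes of like brightness. In the low line Mrps25 (0.40 ± 0.09, adjusted p = 0.0112), Mrps6 (0.36 ± 0.08, adjusted p = 0.00699) and Mrps27 (0.45 ± 0.14, adjusted p = 0.0499) were higher in amygdala and Mrps28 (-0.37 ± 0.11, adjusted p = 0.0476) was lower. Mrpl16 and Mrps33 had the next lowest p, 0.20 ± 0.06 and -0.19 ± 0.06, with adjusted p of 0.0572 and 0.0575 and no overlap of arrays. In the low line 6 of the 75 genes had tissues that did not overlap, against 8.86% of all probe sets and 21.9% of genes of like brightness. The low line count was 2 without array 1, 5 or 6 of amygdala or array 2, 4 or 5 of hippocampus, and the calls of Mrps27 and Mrps28 were lost in 8 and 10 of the 12 fits without a single array.

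In the high line, 8 genes were called higher in amygdala: Mrps25 (0.53 ± 0.07), Mrps6 (0.48 ± 0.08), Mrpl37 (0.41 ± 0.11), Mrpl10 (0.40 ± 0.09), Mrpl40 (0.38 ± 0.12), Mrpl9 (0.37 ± 0.09), Mrpl47 (0.34 ± 0.08) and Mrps16 (0.28 ± 0.08). Mrpl50 (-0.41 ± 0.13) and Mrps9 (-0.39 ± 0.10) were called lower. The adjusted p ran from 2.34e-04 for Mrps25 to 0.0466 for Mrpl50. The split of 8 higher and 2 lower became 11 and 0 with median centring, and 7 and 4 with quantile normalization. With the probe sets of a gene averaged it was 9 and 0, and Mrpl50 (-0.21), Mrps9 (-0.22) and Mrpl47 (0.16) lost their calls. Their adjusted p was then 0.149, 0.102 and 0.375. The ratio of the 5′ to the 3′ actin control was 0.301 and 0.339 on amygdala arrays 7 and 8 of the high line, against 0.497 to 0.630 on the other amygdala arrays, and 5 genes were called without them. The calls of Mrpl40, Mrpl50, Mrps16 and Mrps9 were lost in 9, 8, 4 and 3 of 12 fits without a single array.

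In the main fits only Mrps25 and Mrps6 were called in both lines. With the array number as a block, Mrps25 lost its low line call (adjusted p = 0.0513). The difference had the same sign in both lines for 59 genes (78.7%), against 82.0% of genes of like brightness and 69.3% of all probe sets. Mrpl10, the counterpart of bacterial L10 in the stalk that recruits translation factors, showed the widest gap among the named genes, 0.40 in the high line against 0.04 in the low line. The test of that gap is the interaction of line and tissue given below, which called no gene.

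**Figure D4:**
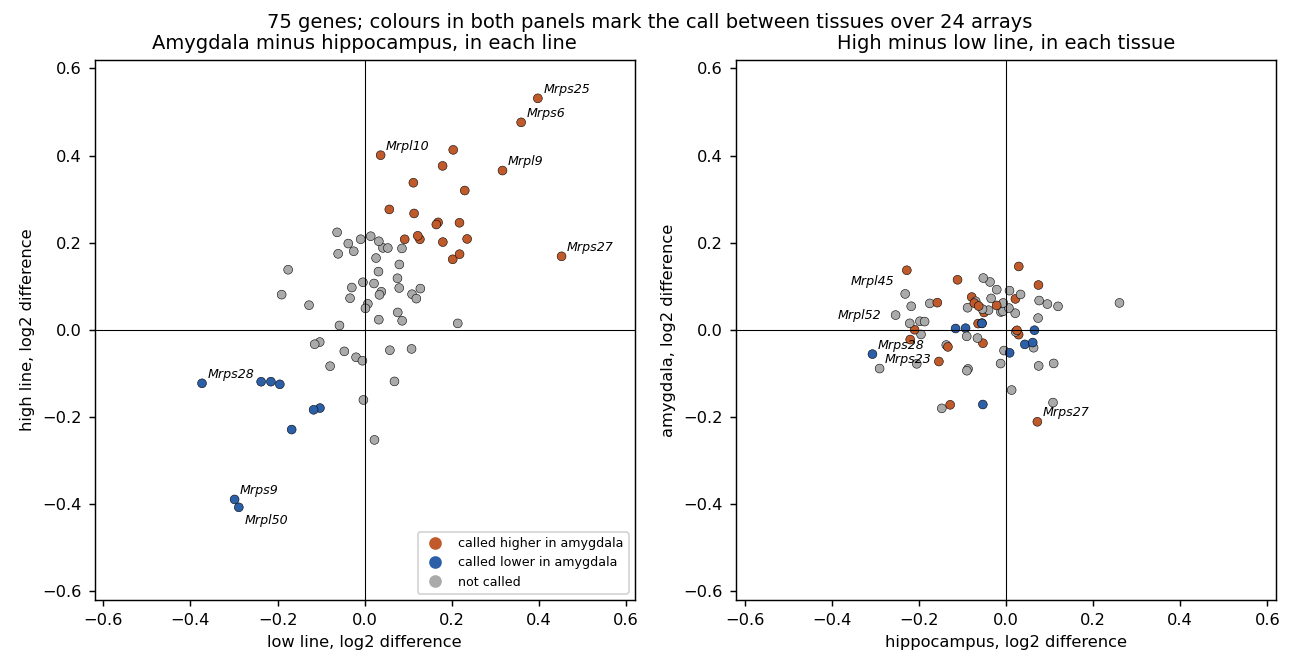
Left, the amygdala minus hippocampus difference of the 75 genes in the low line (horizontal) and the high line (vertical); right, the high minus low line difference in hippocampus (horizontal) and amygdala (vertical), all as differences of log2(signal + 16). Colours give the tissue call over 24 arrays: called genes lie in the quadrants of equal sign on the left, where the 24-array difference is the mean of both lines, and are spread around 0 on the right.

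Between the high and low freezing lines, limma called none of the 75 genes on its representative probe set in either tissue. Mrps15, left out by the rule, is described below. In hippocampus 0 of 75 were called, against 0.0222% of all probe sets (10 of 45037), and 11 passed an unadjusted p of 0.05, 10 lower and 1 higher in the high line. This unadjusted threshold was passed by 8.97% of all probe sets and 6.72% of genes of like brightness. The high line was lower for 50 of the 75 genes, with a median of -0.05, against a median of 0.02 over all probe sets and -0.01 over genes of like brightness; 46 were lower with quantile normalization, 65 with median centring and 43 with the probe sets of a gene averaged. The largest difference was -0.31.

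The lowest p in hippocampus was that of Mrpl52, a large subunit protein without a bacterial counterpart. It ran from 9.16 to 9.35 in the low line (median 9.26) and from 8.87 to 9.17 in the high line (median 9.00), so that the ranges touched at their ends. The difference was -0.25 ± 0.08, with an adjusted p of 0.389. Mrpl45, which anchors the ribosome at the inner membrane, ran from 8.06 to 8.20 and from 7.76 to 8.09, with a difference of -0.23 ± 0.07 (adjusted p = 0.405). Mrps21 (-0.22 ± 0.07), Mrps23 (-0.29 ± 0.10), Mrps18a (-0.19 ± 0.07) and Mrps28 (-0.31 ± 0.12) followed, with adjusted p between 0.427 and 0.491. The lines did not overlap for 1 gene, Mrpl23, the counterpart of bacterial L23 at the exit of the nascent chain tunnel, which is named here after its values were seen; such separation was shown by 0.637% of all probe sets. Mrpl23 ran from 9.17 to 9.40 in the low line and from 9.02 to 9.16 in the high line, with a difference of -0.14 ± 0.07 (adjusted p = 0.575).

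Mrps15, the small subunit gene left out of the 75, is the counterpart of bacterial S15. It was called in hippocampus on its weakest probe set (-1.16 ± 0.14, adjusted p = 0.0264, mean level 5.62). There its 2 brighter probe sets (mean levels 8.49 and 8.11) differed by -0.04 and -0.06. In amygdala the weakest probe set differed by -0.57 ± 0.16 and was not called (adjusted p = 0.519), and the 2 brighter ones by -0.06 and -0.13. Beside the line comparison in hippocampus, the 18S control was lower in the high line, 5195 ± 882 against 6702 ± 501 (SD, n = 6 each, no overlap, exact permutation p = 0.00216, 0.0173 after Benjamini-Hochberg adjustment over 8 control tests). Hippocampus markers were lower in the high line for 10 of 10 genes, none called, with summed signals of 9242 to 10244 against 10708 to 11830. Meninges markers were higher for 5 of 6, none called, with 1579 to 1949 against 1147 to 1518. Neither summed signal overlapped between the lines, and the part of these measures in the line differences was not tested.

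In amygdala 0 of 75 genes were called, against 0.00222% of all probe sets (1 of 45037), and 0 passed an unadjusted p of 0.05, against 6.54% of all probe sets and 4.62% of genes of like brightness. The high line was higher for 44 genes, with a median of 0.02. This direction did not hold without amygdala arrays 7 and 8 of the high line, where 37 genes were above 0 and 38 below; it was 52 above 0 with median centring and 40 with probe sets averaged. Mrps12, the counterpart of bacterial S12 at the decoding centre, had the lowest p. It ran from 9.24 to 9.57 in the low line and from 9.43 to 9.63 in the high line, with overlapping arrays and a difference of 0.15 ± 0.07 (adjusted p = 0.780). Mrps27 (-0.21 ± 0.11), Mrpl11 (-0.14 ± 0.08), Mrpl2 (-0.17 ± 0.10), Mrps36 (-0.17 ± 0.10) and Mrps2 (0.12 ± 0.07) followed, with adjusted p between 0.783 and 0.824.

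The interaction, which asks whether the line difference depends on the tissue and equally whether the tissue difference depends on the line, called 0 of 75 genes and 0% of all probe sets. At an unadjusted p of 0.05 it passed 6 of the 75, all with a more positive line difference in amygdala, against 7.08% of all probe sets and 5.36% of genes of like brightness. These were Mrpl45 (0.31 ± 0.11), Mrpl10 (0.36 ± 0.12), Mrps21 (0.27 ± 0.11), Mrpl52 (0.29 ± 0.12), Mrps16 (0.22 ± 0.10) and Mrpl47 (0.23 ± 0.10), with adjusted p between 0.585 and 0.679. The interaction was above 0 for 50 genes, with a median of 0.08. The median over all probe sets was -0.03, which is not a comparison of like brightness. With quantile normalization 49 genes were above 0, with median centring 67 and with probe sets averaged 39. The line difference had the same sign in both tissues for 30 genes (40%), against 53.4% of genes of like brightness.

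Other genes of mitochondrial gene expression were described in the same tissue comparison from lists of textbook members. The shares called there were 12.9% each way over all probe sets, and 26.8% higher and 20.1% lower for genes of like brightness. Of 28 genes for ribosome assembly and ribosomal RNA processing, 5 were called higher in amygdala and 1 lower, with a median of 0.07. Ngrn, needed for the mitochondrial 16S ribosomal RNA, differed by 0.29 ± 0.05 (adjusted p = 2.67e-05), Mrm3, a methyltransferase of that RNA, by 0.34 ± 0.07 (adjusted p = 6.75e-04), and the helicase gene Dhx30 by 0.18 ± 0.04 (adjusted p = 0.00236). A list of 21 genes held mitochondrial aminoacyl-tRNA synthetases, which charge mitochondrial tRNAs, and the amidotransferase subunit genes Gatb, Gatc and Qrsl1. Of these, 3 were called higher (Vars2, Lars2 and Sars2, 0.52, 0.21 and 0.32) and 0 lower. Of 20 genes listed with the translation factors, not all of them factors (Lrpprc and Slirp among others), 2 were called each way. Tufm, the elongation factor that brings tRNA to the ribosome, was higher (0.31 ± 0.08). Gfm2 and Mtif3, factors of ribosome recycling and of initiation, were lower (-0.24 ± 0.07 and -0.33 ± 0.10).

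Of 18 genes for mitochondrial transcription and its regulators, 4 were called higher in amygdala and 1 lower. Nrf1, which encodes the factor whose core motif was searched in the promoters, was 1.39-fold higher, 7.09 ± 0.13 in amygdala and 6.62 ± 0.21 in hippocampus (SD, n = 12 each, adjusted p = 2.99e-05). Gabpa, which encodes the DNA-binding subunit of GABP, an ETS family factor, was the gene called lower (-0.24 ± 0.07, adjusted p = 0.00717); it is named after its value was seen. The mitochondrial DNA polymerase gene Polg differed by 0.21 ± 0.05 and the elongation factor gene Tefm by 0.30 ± 0.08. None of the 4 mitochondrial ribosomal protein genes with other names (Chchd1, Dap3, Gadd45gip1 and Ptcd3) was called, and with quantile normalization 1 of them was called lower.

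The list of 77 oxidative phosphorylation subunit genes, which cover the respiratory chain and ATP synthase and include complex II, whose subunits are all nuclear encoded, had 6 called higher and 24 lower in amygdala and a median of -0.08. With quantile normalization this became 9 higher and 16 lower with a median of -0.03, and with median centring 4 higher and 16 lower. Ndufs7 (-0.36 ± 0.04, adjusted p = 5.24e-07), Ndufb11 (-0.32 ± 0.04) and Ndufa4 (-0.29 ± 0.04), all subunits first described in complex I, had the lowest p. The 42 cytosolic ribosomal protein genes had 7 called higher and 2 lower with a median of 0.06, among them Rpl37 (0.39 ± 0.06), Rpl27a (0.37 ± 0.07) and Rpl11 (0.24 ± 0.05); with quantile normalization 18 were called higher and 1 lower. Beside these stand the 21 higher and 9 lower of the mitochondrial ribosomal protein genes, and whether the lists differ from each other was not tested. In the line comparison of hippocampus, no gene of these lists was called. Counts of direction in that comparison move with the normalization. Of the 75 mitochondrial ribosomal protein genes, 50 were lower in the high line in the main fit, 46 with quantile normalization and 65 with median centring.

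**Figure D5:**
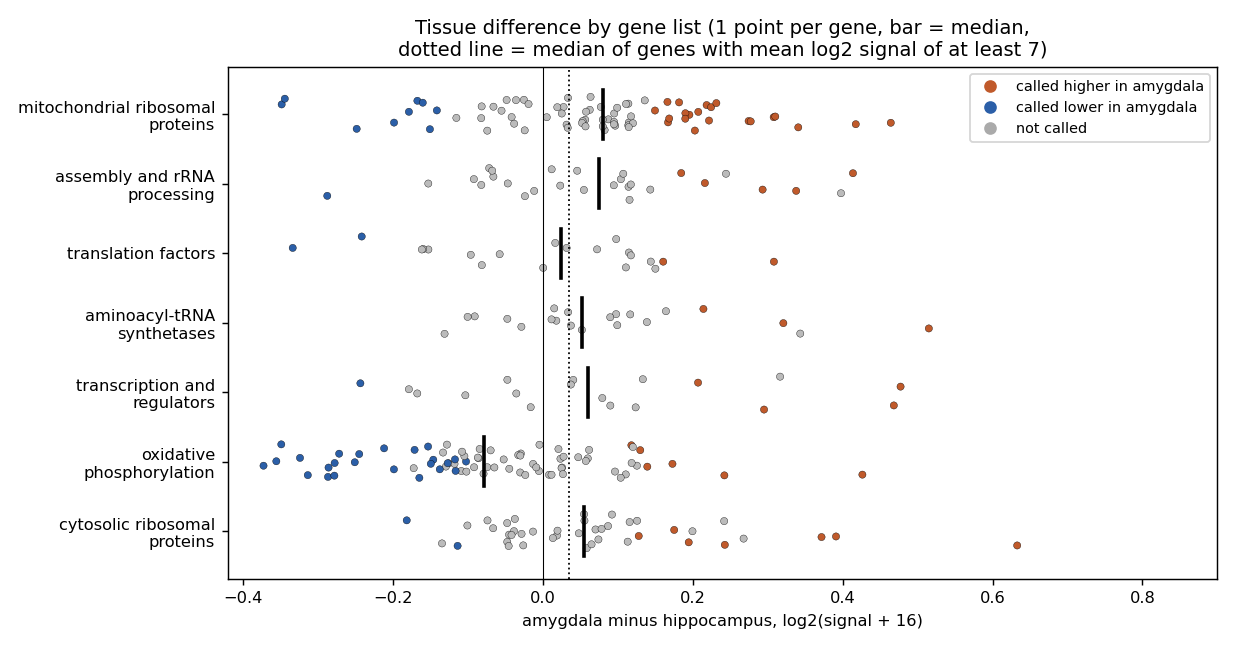
Amygdala minus hippocampus difference of log2(signal + 16) for each gene of 7 lists, with 1 point per gene, a bar at each list's median and a dotted line at the median of genes of like brightness (0.03). The medians run from -0.08 for oxidative phosphorylation to 0.08 for the mitochondrial ribosomal proteins, and points of both call colours occur in 6 of the 7 lists.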

How the data were processed

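Amygdala and hippocampus RNA of 4 groups of 6 male mouse arrays was read on an Affymetrix expression array. The values deposited by the authors are linear intensities, 1 per probe set, and were used as scaled there; the signal algorithm is not given in the sources used here. Of 45101 probe sets, 64 controls were left out. Genes were named through the platform annotation, and the symbols of all 75 members matched the RefSeq table of GRCm38.p6. Intensities were tested as log2(value + 16) in R 4.3.3 by limma 3.58.1, using lmFit and eBayes, with Benjamini-Hochberg adjustment over 45037 probe sets and a call at an adjusted p under 0.05.

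The tissue difference and the interaction came from a fit of 4 group means over 24 arrays. The tissue difference within a line came from the 12 arrays of that line, and the line difference (high minus low) from the 12 arrays of a tissue. The fits were tested on simulated arrays. An array gives no molecule count, so the number of arrays limits the precision.

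Up to 10 called members per direction are named by the size of the difference; where fewer than 5 were called, the 6 of lowest p are given, passed or not. Up to 3 called genes of lowest p are named in each other list. The members and lists were chosen with earlier results of these data known. Alternatives were other pseudocounts, a filter on low signals, quantile normalization, median centring, an intensity trend, averaged probe sets, the array number as a block, a fit of all arrays for the line difference, and leaving out arrays. No pairing of the tissues by array number was assumed in the main fits.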

Additional observations from a re-analysis of the deposited data

Results flagged for a closer look

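In groups of 6 arrays, 112 pairs of a named gene and a group were examined for an array standing apart from the other 5, and 3 did so, where chance gives about 1 in 20. Mrps6 read 9.48 on amygdala array 7 of the high line, above the other arrays of its group at 9.09 to 9.23. Mrps6 also read 8.63 on hippocampus array 6 of the low line, below the others at 8.82 to 8.89. Mrpl28 read 7.86 on hippocampus array 4 of the low line, below the others at 8.41 to 8.72.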

How the results depend on the processing

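The tissue count of 30 called genes over all arrays stayed between 23 and 33 under every alternative run, and between 27 and 31 without a single array. It was 23 with the array number as a replicate block (15 higher, 8 lower) and 23 without amygdala arrays 7 and 8 of the high line, an alternative chosen after seeing the data. Of the 19 genes named there, 11 kept their call in all 33 alternatives; Mrpl48 lost it in 14. With probe sets averaged, calls were lost by Mrpl47 (0.06), Mrpl54 (0.10) and Mrps24 (0.11), higher in amygdala, and by Mrpl19 (-0.08), Mrpl44 (-0.10) and Mrpl48 (-0.12), lower. With median centring, the lower calls of Mrpl18, Mrpl19, Mrpl44 and Mrpl48 were lost. Without arrays 7 and 8, the higher calls of Mrpl28 and Mrpl54 and the lower call of Mrpl48 were lost. In the low line the count of 4 became 2 with a pseudocount of 1, 11 with a pseudocount of 64, 12 without the lowest 40 percent of probe sets, 11 with an intensity trend and 2 with the block; without a single array it was 2 to 6. In the high line the count of 10 became 16 with a pseudocount of 64, 19 without the lowest 40 percent, 18 with the trend, 5 with the block and 5 without arrays 7 and 8; without a single array it was 7 to 11. Counts in both line comparisons and the interaction were 0 under every alternative. Mrps2 in the amygdala line comparison turned from 0.12 to -0.00594 with probe sets averaged. Same-numbered arrays of the tissues correlated at -0.05 to 0.05 in their deviations and 2 of 12 pairs correlated best with their own number, so the block rests on a shared number alone. No paired analysis was possible because the lines share no array number in the line comparisons. The cause of these changes was not tested. The SE of the named members was 0.06 to 0.14 in the comparisons of 6 with 6 arrays, and differences of 1 SE cannot be resolved there. In the low line Mrpl16 at 0.20 ± 0.06 was not called. The smallest difference of a named gene called in these comparisons was 0.28 (Mrps16, high line).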
